A study of Mus musculus with 16 samples.

Results

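RBPJ loss was examined within PDGF-driven, p53-deficient mouse brain tumours by setting 4 arrays of PDGF+p53-/-RBPjk-/- tumours against 4 arrays of PDGF+p53-/- tumours. These 8 arrays of the 16 in the series were chosen by their titles, and every gene with a probe set of its own was compared. In both groups a retrovirus carrying PDGF-B and Cre from 1 transcript (PDGF-IRES-Cre) was used in mice with floxed p53, so PDGF-B overexpression and p53 deletion were shared. The first group, called PDGF-p53-RBPJ here, also carried floxed RBPjk alleles, and the second, called PDGF-p53, was wild type for Rbpj. Cre comes with the virus, so host cells in the tissue that were not infected keep their alleles. The other 8 arrays are given as reference levels: 4 of normal brain, wild type at all 3 loci, and 4 of p53-/-RBPjk-/- tumours (p53-RBPJ), in which both floxed genes were deleted in Hes5+ cells by Hes5::CreERT2 without the PDGF virus. Tumours were taken at behavioural symptoms, dissected by a Cre-dependent GFP reporter and extracted with Trizol. The age, strain and time after infection were not given in the sources used here, and the labels do not say whether the numbered replicates were separate animals, and a p-value here covers the scatter of the 4 arrays in each group, part of which may be technical.

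Notch is a cell surface receptor that is cleaved when a neighbouring cell presents a Delta or Jagged ligand. The freed intracellular part enters the nucleus and joins RBPJ, a DNA-binding protein, and a Mastermind co-activator to switch on genes of the Hes and Hey families. Without Notch, RBPJ sits with co-repressors such as Spen (SHARP) and histone deacetylases and holds the same genes down, so its loss removes both an activator and a repressor. In the brain the pathway is known for keeping neural stem cells undifferentiated.

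RBPJ binds DNA at the letters TGGGAA, most often within GTGGGAA. Both motifs were searched on both strands of RefSeq promoter windows (GRCm38.p6) of 300 bases, running from 250 before to 50 after a gene's start, and every match of the longer motif is also a match of the shorter one. Of 32851 windows, 25.6% held TGGGAA, 6.38% held GTGGGAA and 0.256% held GTGGGAA at least 2 times. Windows were found for 11 of the 17 measured Notch target genes. TGGGAA was present in 6 of the 11 and GTGGGAA in 3 (Hes5, Hes7 and Hey2). Counted by gene symbol, as these are, the shares over all 27025 symbols with a window were 28.3% and 7.25%. A match is a string of letters and not a measured binding site. The windows of the Notch targets Hes5 and Hey2 are shown because each held GTGGGAA 2 times, and that of Clic5 because it was the gene with the smallest p in the comparison. Each is printed from 250 bases before to 20 bases after the start, 5′ to 3′ on the gene's strand, with the matches in capitals (TTCCCAC and TTCCCA are the motifs on the opposite strand). The window of Hes5 lies at chr4:154960673-154960942 on the plus strand, that of Hey2 at chr10:30842764-30843033 on the minus strand, and that of Clic5 at chr17:44188322-44188591 on the plus strand.
Hes5: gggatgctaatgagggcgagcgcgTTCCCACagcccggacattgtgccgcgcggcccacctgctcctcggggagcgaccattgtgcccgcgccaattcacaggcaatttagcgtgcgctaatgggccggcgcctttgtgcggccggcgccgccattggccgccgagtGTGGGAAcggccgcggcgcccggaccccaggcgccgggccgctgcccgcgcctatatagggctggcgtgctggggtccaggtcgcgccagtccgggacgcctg
Hey2: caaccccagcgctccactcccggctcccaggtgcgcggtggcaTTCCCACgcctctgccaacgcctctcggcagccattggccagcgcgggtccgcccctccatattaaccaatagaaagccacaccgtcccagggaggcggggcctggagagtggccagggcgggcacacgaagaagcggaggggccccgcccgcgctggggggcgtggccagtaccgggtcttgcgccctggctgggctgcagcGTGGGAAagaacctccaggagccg
Clic5: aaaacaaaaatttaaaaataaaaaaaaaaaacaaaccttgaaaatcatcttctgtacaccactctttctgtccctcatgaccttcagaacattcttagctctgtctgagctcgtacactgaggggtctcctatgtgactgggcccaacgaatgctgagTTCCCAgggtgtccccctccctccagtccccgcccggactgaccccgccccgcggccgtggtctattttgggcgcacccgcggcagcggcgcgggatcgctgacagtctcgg
Positions are those of the shorter motif (TGGGAA or TTCCCA) within each match. In Hes5 it began 226 and 82 bases before the start, and in Hey2 207 and 3 bases before it. Clic5 held only the shorter motif, on the opposite strand, beginning 92 bases before the start.

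All values are log2 expression on a scale that RMA makes alike across arrays, and a difference is the mean of PDGF-p53-RBPJ minus that of PDGF-p53. A gene is called where its limma p, adjusted by Benjamini-Hochberg over 19936 genes, is under 0.05, and groups do not overlap where all 4 values of one lie beyond all 4 of the other. The 2 groups were close. Of 19936 genes, 3 were called higher in PDGF-p53-RBPJ tumours (0.0150%) and 1 lower (0.00502%). Groups did not overlap for 387 genes that were higher (1.94%) and 246 that were lower (1.23%). An unadjusted p under 0.05 was found for 672 higher genes (3.37%) and 361 lower genes (1.81%). The median difference over all genes was 0.02, and 40 genes differed by at least 2-fold, 15 of them higher and 25 lower. The arrays of one group correlated with r from 0.968 to 0.984 and those of different groups with r from 0.958 to 0.984 across probe sets. By Xist and Y-linked genes, 1 array of each PDGF group had a female pattern (PDGF-p53 replicate 1 and PDGF-p53-RBPJ replicate 3) and the others a male one.

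**Figure D1:**
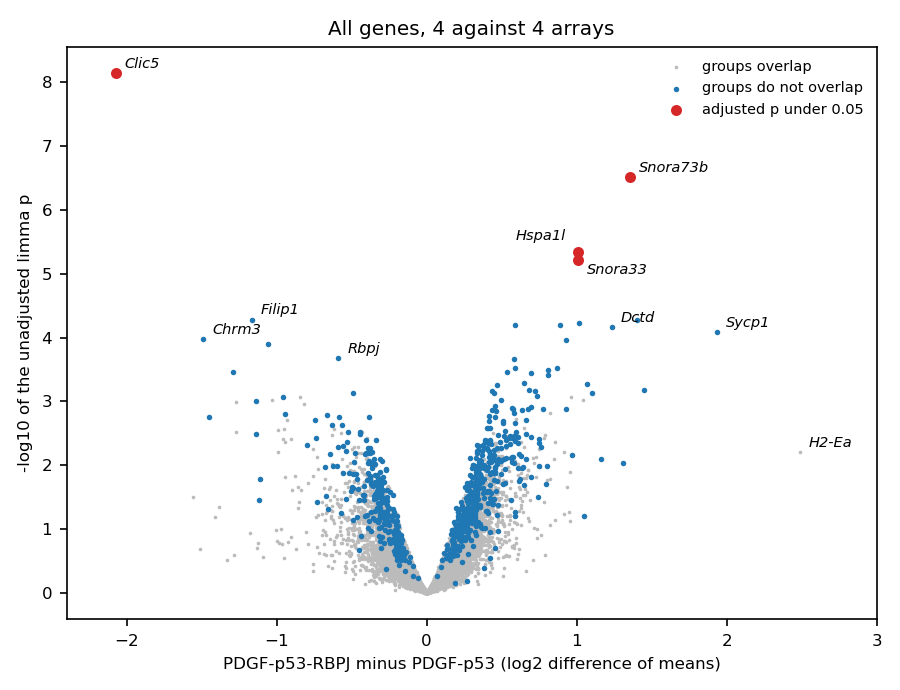
Difference between the tumour groups (x axis, log2) against the unadjusted limma p (y axis, −log10) for 19936 genes, with 4 arrays a group. Blue points are genes whose groups did not overlap, and the 4 red points (Clic5, Snora73b, Hspa1l and Snora33) passed the adjusted threshold.

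Rbpj itself was lower by a modest amount. It read 8.50, 8.41, 8.19 and 8.17 on the PDGF-p53 arrays and 7.69, 7.88, 7.55 and 7.81 on the PDGF-p53-RBPJ arrays. Every array of the RBPjk-/- group was below every array of the other, yet transcript signal was still present. The difference was −0.59 (95% confidence interval −0.85 to −0.32), a 1.5-fold lower level, with a limma adjusted p of 0.269. An exact permutation test, two-sided, gave 0.0286, which is the lowest value possible with 4 arrays a side. Normal brain, where Rbpj is intact, read 7.76 to 8.21, and p53-RBPJ tumours 7.64 to 7.93, so the RBPJ-deleted levels lay within or just under the range of normal brain. A second Rbpj probe set was dimmer, with means of 4.78 and 4.51 and a difference of −0.26, and the mean of both probe sets gave −0.43. Which exons the floxed allele removes, and whether either probe set lies in them, was not given in the sources used here. A probe set outside the deleted part does not check the deletion. In bulk tissue, fewer cells of a type and less RNA per cell cannot be told apart, and Rbpj RNA from undeleted host cells adds to each value. Trp53 was not analysed here, because no probe set carried its symbol alone. Pdgfb, the gene the virus carries, differed by −0.01, from 5.81 to 6.31 in PDGF-p53 and from 5.88 to 6.19 in PDGF-p53-RBPJ tumours. Those ranges overlap with the 5.69 to 6.20 of normal brain, and whether the probe set covers the viral copy was not given.

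No gene of the Notch pathway was called, and over all genes only 0.0150% were called higher and 0.00502% lower. With so few calls over all genes, the lack of calls among the Notch genes says little about the pathway. The 5 Notch lists (ligands, receptors, processing and regulators, RBPJ co-factors, targets) held 65 measured genes, of which 37 had a negative difference and 28 a positive one. Their median difference was −0.04, against 0.02 for all genes. At an unadjusted limma p under 0.05 stood 1 higher gene (Spen) and 4 lower ones (Rbpj, Hdac1, Hes1 and Hes5). Over all genes these shares were 3.37% and 1.81%. Groups did not overlap for 2 of the 65, Rbpj and Fabp7, both lower, and for 0 that were higher, beside 1.23% and 1.94% of all genes. For 62 of the 65 genes the 95% confidence interval lay within 1 log2 unit on either side of 0, so larger differences than 2-fold are outside the interval for these genes.

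The ligands and receptors overlapped between the groups throughout. Of the 8 ligands, 5 had a positive difference, and the largest was Dlk1, a non-canonical ligand, at 0.23. The canonical ligand Jag1 read 6.54 to 7.41 in PDGF-p53 and 6.80 to 7.08 in PDGF-p53-RBPJ tumours, a difference of −0.01. Dll1, which presents the signal to a neighbouring cell, read 5.98 to 6.06 and 5.78 to 6.56, and the groups overlapped. Among the receptors, Notch1 differed by 0.19, Notch2 by −0.08, Notch3 by −0.04 and Notch4 by −0.22, and none of the 4 separated the groups. Of 21 genes of processing and regulation, 14 had a negative difference. The largest was Lfng, the Fringe enzyme that adds sugar to the receptor, at −0.36 (adjusted p 0.946). Nrarp, a feedback inhibitor of the pathway, differed by −0.26.

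RBPJ's partners had small differences of both signs. Hdac1, a histone deacetylase of repressor complexes, read 9.89, 10.14, 9.48 and 10.04 on the PDGF-p53 arrays and 9.47, 9.42, 9.50 and 9.55 on the PDGF-p53-RBPJ arrays. PDGF-p53 replicate 3 lay among the other group, and the difference was −0.40 with an adjusted p of 0.770. Spen, the co-repressor that binds RBPJ directly, had a difference of 0.30 (adjusted p 0.891). The Mastermind genes Maml1, Maml2 and Maml3 differed by −0.06, 0.22 and −0.19.

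The genes of the Notch target list, for which binding by RBPJ was not measured here, also had differences of both signs. Of 17 measured targets, 10 had a negative and 7 a positive difference, with a median of −0.04. Hes1, the transcriptional repressor that is the best known target, read 6.25, 7.0, 6.5 and 6.06 on the PDGF-p53 arrays and 5.92, 5.72, 6.17 and 5.89 on the PDGF-p53-RBPJ arrays. Only PDGF-p53-RBPJ replicate 3 exceeded the lowest PDGF-p53 array. The difference was −0.53 (95% confidence interval −0.92 to −0.14), with an adjusted p of 0.784 and an exact permutation p of 0.0571. Hes5, whose promoter letters are shown above, read 6.96, 6.66, 7.11 and 7.16 against 6.61, 6.72, 6.65 and 6.72, with PDGF-p53 replicate 2 among the other group. Its difference was −0.30 (adjusted p 0.888, exact permutation p 0.0857). Hey1, a relative of the Hes genes, differed by −0.07, and Heyl by 0.09.

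Hey2, the other target with GTGGGAA present 2 times, went the opposite way in its mean. It read 6.80, 6.90, 5.89 and 6.60 on the PDGF-p53 arrays and 6.57, 6.92, 6.47 and 7.80 on the PDGF-p53-RBPJ arrays, with replicate 4 above all others, a difference of 0.39 (95% confidence interval −0.31 to 1.10). Without that array it was 0.11, and without PDGF-p53 replicate 3, the lowest, 0.17. Fabp7 (brain lipid-binding protein), which marks radial glia, read 12.29, 12.50, 12.61 and 12.30 against 12.19, 12.03, 12.28 and 12.19. The groups did not overlap, but the gap between them was 0.01, and the difference was −0.25 with an adjusted p of 0.961. Fabp7 stayed far above its level in normal brain, 9.50 to 10.52, in both tumour groups. Myc, a growth-promoting transcription factor and a target in lymphoid cells, had a difference of 0.43, and Id4, an inhibitor of bHLH factors, of −0.35; neither was called. With 1 array left out, Myc ran from 0.27 to 0.57 and Id4 from −0.57 to 0.01, the last without PDGF-p53 replicate 3.

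**Figure D2:**
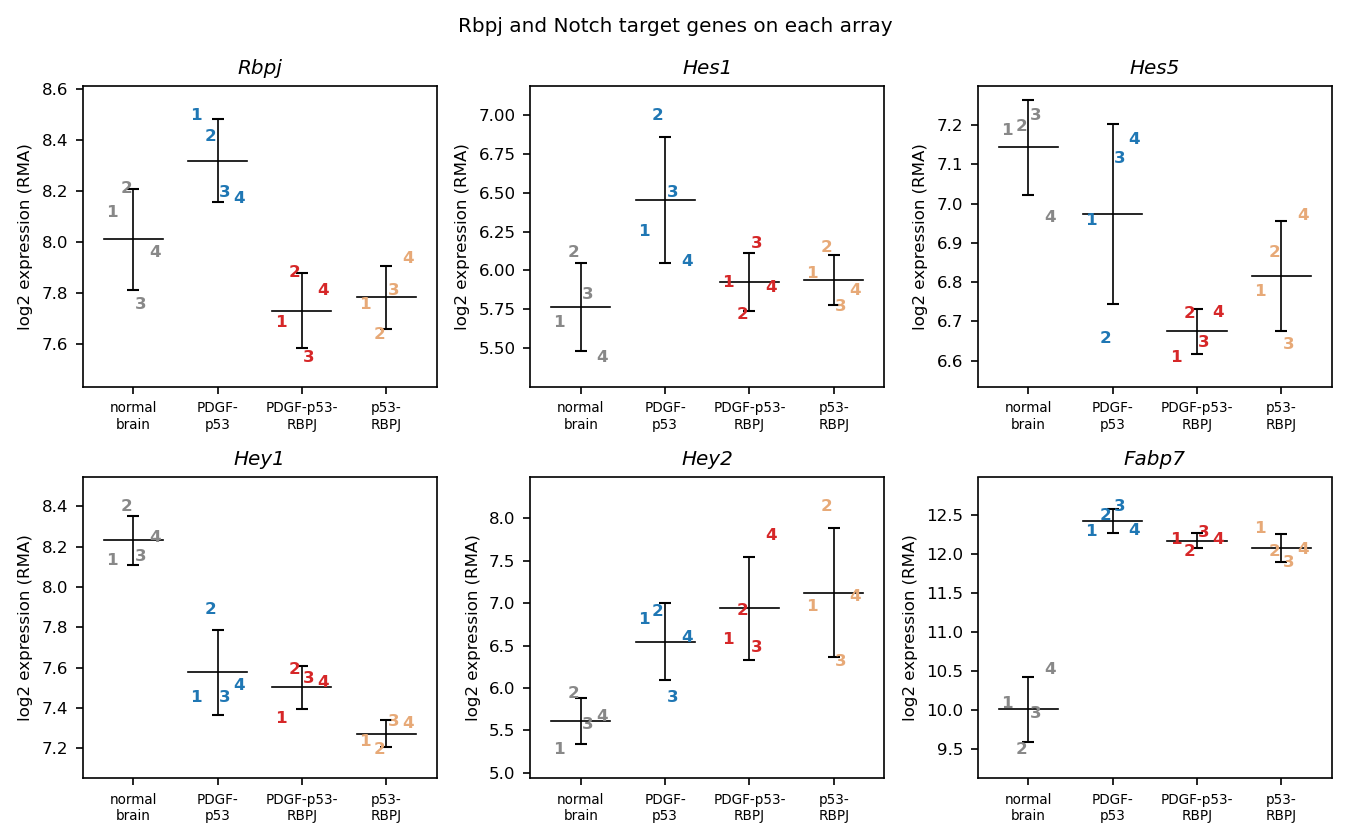
Log2 expression (y axis, a separate scale per panel) of Rbpj and 5 Notch target genes on each array of the 4 groups (x axis). Digits are replicate numbers, bars are means with SD over 4 arrays; the PDGF tumour groups separate for Rbpj and narrowly for Fabp7 and overlap for Hes1, Hes5, Hey1 and Hey2.

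Hes proteins repress proneural genes in the developing brain. The 16 measured members of the proneural and neurogenic list, not all of them such genes, had a median difference of −0.04, with 7 positive. The largest was Neurod6, a factor of cortical neurons, at −0.69, and without PDGF-p53 replicate 3, the highest at 5.63, it was −0.31. On the PDGF axis, the receptor gene Pdgfra read 12.04, 12.14, 11.87 and 11.93 on the PDGF-p53 arrays and 11.72, 11.73, 11.64 and 11.81 on the PDGF-p53-RBPJ arrays. The groups did not overlap, with a difference of −0.27 (adjusted p 0.985), and all 8 arrays were over 3 log2 units above normal brain.

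Clic5 gave the clearest difference of the comparison. This gene encodes a chloride intracellular channel protein that links membranes to the actin cytoskeleton. It read 8.25, 9.27, 9.24 and 8.86 on the PDGF-p53 arrays and 6.66, 7.26, 6.87 and 6.52 on the PDGF-p53-RBPJ arrays. The lowest PDGF-p53 array was thus 0.99 above the highest of the other group. Clic5 fell by 2.07 ± 0.20 (SE, n = 4), a 4.21-fold lower level, with a limma adjusted p of 0.000145. In normal brain it read 5.79 to 5.96 and in p53-RBPJ tumours 5.30 to 5.72, so PDGF-p53-RBPJ tumours lay between PDGF-p53 tumours and both of these groups. Clic5 was called in every alternative fit and with each single array left out.

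Clic5 lies on chromosome 17, and its neighbours were looked up by their order in the reference, 8 measured genes on each side. Of these 16, 7 had a negative and 9 a positive difference, with a median of 0.05. Groups did not overlap for 2 that were lower and 0 that were higher, beside 1.23% and 1.94% of all genes. Pla2g7, which encodes the plasma enzyme that breaks down platelet-activating factor, read 8.84, 9.42, 8.56 and 8.69 on the PDGF-p53 arrays and 7.73, 7.75, 8.17 and 8.03 on the PDGF-p53-RBPJ arrays, a difference of −0.96 (adjusted p 0.465). Rcan2, a regulator of calcineurin, read 8.30, 8.74, 8.76 and 8.21 against 7.63, 7.54, 7.87 and 7.79, a difference of −0.80 (adjusted p 0.719). Between Rcan2 and Clic5, Enpp5 and Enpp4 had values that overlapped between the groups, and on the other side Supt3 differed by 0.29. Nearby, Cyp39a1, an oxysterol hydroxylase, differed by 0.78 in the opposite direction.

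The 3 genes called higher were 2 small nucleolar RNAs and a heat shock gene. Snora73b, a box H/ACA RNA that takes part in ribosomal RNA processing, read 5.59, 5.76, 5.57 and 5.68 on the PDGF-p53 arrays and 6.80, 7.53, 6.94 and 6.76 on the PDGF-p53-RBPJ arrays. The spread within PDGF-p53 was small, 0.09 (SD), and the gap between the groups was 1.0. It rose by 1.36 ± 0.17 (SE), 2.56-fold, with a limma adjusted p of 0.00305, and was called in every alternative fit. Its level in p53-RBPJ tumours was 6.77 to 7.23 and in normal brain 5.71 to 6.30, and all PDGF-p53 arrays but replicate 2 lay below every array of the other groups.

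Snora33 read 7.46, 6.99, 6.93 and 6.5 against 7.80, 8.23, 7.85 and 8.03, a rise of 1.01 ± 0.16 with a limma adjusted p of 0.0309. PDGF-p53 replicate 1 came within 0.34 of the other group. Hspa1l, an Hsp70 chaperone best known from the testis, read 5.59, 5.58, 5.56 and 5.13 against 6.29, 6.59, 6.30 and 6.71, a rise of 1.01 ± 0.15 with a limma adjusted p of 0.0305. The PDGF-p53 arrays were again the ones apart, since normal brain read 6.36 to 6.83 and p53-RBPJ tumours 6.05 to 6.58. Both calls were lost when the fit held only the 8 arrays (limma adjusted p 0.198 and 0.0742). Hspa1l was lost with each of the 8 arrays left out in turn (adjusted p 0.0559 to 0.198), and Snora33 with 6 of the 8, all but PDGF-p53 replicates 1 and 4. Hspa1l resembles other Hsp70 genes in sequence. Of these, Hspa1a differed by 0.60 with overlapping groups (limma adjusted p 0.914). It was chosen after values were seen, and the other Hsp70 genes are not given here.

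Because 2 of the 4 called genes were small nucleolar RNAs, all 51 genes with Snora or Snord symbols were listed after these values were seen. Of the 51, 45 had a positive difference, the median was 0.27, and groups did not overlap for 9 that were higher and 0 that were lower, beside 1.94% and 1.23% of all genes. Snora73b and Snora33, which led to the list, are among the 45 and the 9 and enter the means below. The mean over the 51 was 6.59, 6.56, 6.35 and 6.26 on the PDGF-p53 arrays and 6.83, 6.86, 6.77 and 6.72 on the PDGF-p53-RBPJ arrays. These means did not overlap. They were 5.99 to 6.18 in normal brain and 6.86 to 7.09 in p53-RBPJ tumours. Snora73a, a near copy of Snora73b beside it on chromosome 4, read 5.48, 5.49, 5.21 and 5.99 against 6.39, 6.84, 6.55 and 6.46, a difference of 1.02 (adjusted p 0.139), and it was called when PDGF-p53 replicate 4 was left out. How well the probes tell these 2 copies apart was not tested. Snord52 on chromosome 17 differed by 1.07 and Snord22 on chromosome 19 by 0.89, and neither was called (adjusted p 0.429 and 0.139).

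**Figure D3:**
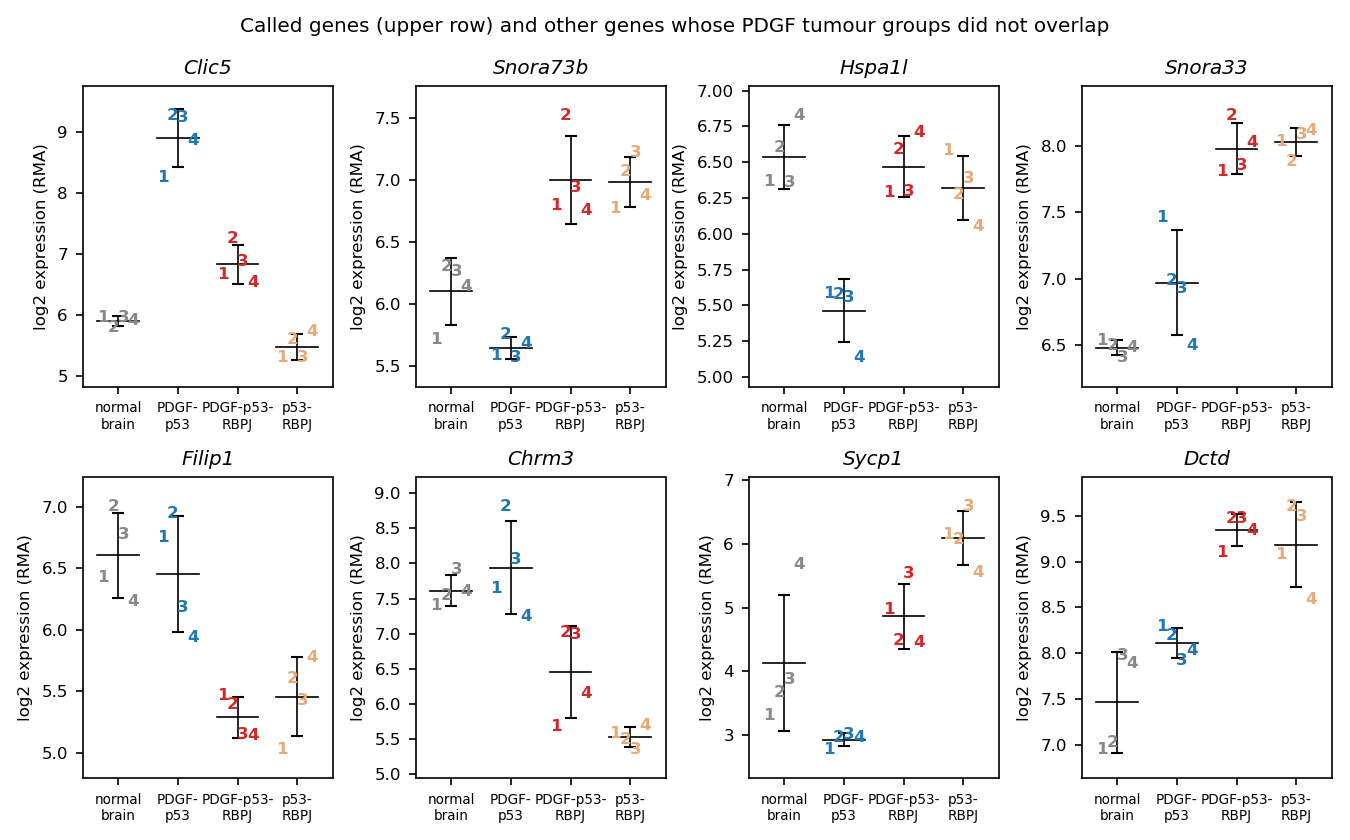
Log2 expression (y axis, a separate scale per panel) on each array of the 4 groups (x axis) for the 4 called genes (upper row) and for Filip1, Chrm3, Sycp1 and Dctd (lower row), whose PDGF tumour groups did not overlap but which were not called. Digits are replicate numbers and bars are means with SD over 4 arrays; Clic5 reads 8.25 to 9.27 in PDGF-p53, 6.52 to 7.26 in PDGF-p53-RBPJ and 5.30 to 5.96 in the other groups.

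In all, 310 genes had groups that did not overlap and an unadjusted p under 0.05, 205 higher and 105 lower. The 15 largest differences in each direction are described as values, since all of these but Clic5 and Hspa1l missed the adjusted threshold. The 15 lower genes ran from −0.73 to −2.07. Chrm3, the M3 muscarinic acetylcholine receptor, read 7.65, 8.81, 8.06 and 7.25 on the PDGF-p53 arrays and 5.67, 7.01, 6.99 and 6.14 on the PDGF-p53-RBPJ arrays, a difference of −1.49 (adjusted p 0.165). Normal brain read 7.40 to 7.91. Adamts3, a secreted protease that trims procollagen and VEGF-C, read 9.91, 9.85, 9.61 and 8.95 against 8.61, 7.74, 8.44 and 7.72, a difference of −1.45 (adjusted p 0.570), and the mean of its probe sets gave −0.91. Filip1, which binds filamin A, read 6.75, 6.95, 6.18 and 5.94 against 5.46, 5.39, 5.15 and 5.14. Its difference of −1.17 had an adjusted p of 0.139, and it passed the threshold with array weights (adjusted p 0.0433) and without PDGF-p53 replicate 4 (0.0466).

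Tlr3, the sensor of double-stranded RNA, read 7.70, 7.94, 7.35 and 7.5 against 7.03, 6.30, 6.10 and 6.62, a difference of −1.11 (adjusted p 0.838). Il15, a cytokine for natural killer and T cells, read 5.64, 4.83, 4.97 and 5.51 against 4.66, 4.10, 4.19 and 4.23, a difference of −0.94 (adjusted p 0.554). Marchf1, a ubiquitin ligase that removes MHC class II from the surface, read 8.08, 8.72, 8.62 and 7.98 against 7.26, 7.06, 7.20 and 7.64, a difference of −1.06 (adjusted p 0.181). H2-T10, a non-classical MHC class I gene with close copies, differed by −0.73. Levels in p53-RBPJ tumours did not follow one pattern: Tlr3 ran from 5.67 to 8.55 there, while Marchf1 ran from 6.93 to 7.85.

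Apod, a lipid-binding apolipoprotein, read 10.53, 10.38, 11.75 and 10.47 against 9.21, 10.20, 9.77 and 9.41, with PDGF-p53 replicate 3 highest, a difference of −1.14, and of −0.81 without that array. Car8, which binds the inositol trisphosphate receptor, read 9.63, 10.06, 9.38 and 9.36 against 8.48, 8.74, 8.58 and 8.15, a difference of −1.12. Normal brain read 10.61 to 11.84 for Apod and 7.97 to 10.78 for Car8. Among the PDGF tumour arrays, the list means of neuron, astrocyte and oligodendrocyte markers were also highest on PDGF-p53 replicate 3. The part of these markers in these results was not tested. Vwa5a differed by −1.29, and Akr1c18, a steroid-reducing enzyme, by −0.75. Efcab1, a calcium-binding protein of cilia, read 4.69 to 5.0 against 3.89 to 4.26, dim values with a gap of 0.42 between the groups, at −0.74.

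Among the 15 higher genes, differences ran from 0.75 to 1.94. Sycp1, a structural protein of the meiotic synaptonemal complex, read 2.77, 2.96, 3.01 and 2.96 on the PDGF-p53 arrays and 4.98, 4.48, 5.53 and 4.46 on the PDGF-p53-RBPJ arrays, a difference of 1.94 (adjusted p 0.148). The PDGF-p53 values sit near the bottom of the array's range, and p53-RBPJ tumours read 5.56 to 6.59. Its partner genes Sycp2 and Sycp3, chosen after these values were seen, differed by 0.21 and −0.39 with overlapping groups. Dctd, the deaminase that makes dUMP for thymidylate synthesis, read 8.29, 8.20, 7.92 and 8.03 against 9.10, 9.47, 9.47 and 9.34, a difference of 1.23 (adjusted p 0.139). Sycp1 and Dctd passed the threshold in the fit on the 8 arrays alone (adjusted p 0.0139 for both). Enpp6, a choline phosphodiesterase of newly forming oligodendrocytes, read 4.88, 5.23, 5.98 and 6.98 against 7.11, 7.29, 7.13 and 7.32, a difference of 1.45 (adjusted p 0.442). Without PDGF-p53 replicate 4, the highest of its group, it was 1.85 (adjusted p 0.0446). The PDGF-p53-RBPJ arrays agreed within 0.11 (SD) while the PDGF-p53 arrays spread over 0.93 (SD). The 14 measured oligodendrocyte markers had a median difference of −0.00. Of the 20 oligodendrocyte precursor markers, 7 had a positive and 13 a negative difference. At an unadjusted limma p under 0.05, 2 of the 20 were higher and 0 lower, beside 3.37% and 1.81% of all genes.

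Polh, a polymerase that copies past ultraviolet damage, read 7.15, 7.08, 6.85 and 7.22 against 8.11, 7.86, 7.90 and 8.14, a difference of 0.93 (adjusted p 0.529). Cdca5, which protects cohesion between sister chromatids, read 6.08, 6.08, 5.23 and 6.44 against 6.68, 7.12, 6.45 and 6.58, a difference of 0.75 (adjusted p 0.715). The histone gene H2ac4, one of a family of near-identical copies that probes may not separate, differed by 0.76. The tripartite motif genes Trim12a and Trim30d, which belong to a cluster of close copies, differed by 1.31 and 1.16, and the first passed the threshold in the fit on the 8 arrays (adjusted p 0.0386). Serpina1c, of the alpha-1-antitrypsin family, differed by 1.40 and Serpinb8, an intracellular protease inhibitor, by 0.81, and Serpina1c too has close copies. The remaining higher genes were Mab21l1 (0.97), Plp2 (0.80), Myo7a, a motor of hair cells (0.78), and the non-coding Znrd1as (1.10).

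Several of these genes also varied within a single reference group. On normal brain arrays 1, 2, 3 and 4, Dctd read 6.95, 7.02, 7.98 and 7.89, and Trim12a read 3.49, 3.64, 4.96 and 4.95. Znrd1as read 6.15, 6.16, 7.5 and 7.08 on the same arrays, and Myo7a 5.75, 5.67, 6.69 and 6.56. Il15, a lower gene, read 5.47, 5.09, 4.06 and 4.62. For all 5, normal brain replicates 3 and 4 lay on the PDGF-p53-RBPJ side of replicates 1 and 2, and all of these samples are wild type. The genes shown here were chosen after their values were seen, because they had this order. Other named genes differed. Rcan2 had the same order, Pla2g7 had the opposite one, and for Clic5 replicates 3 and 4 lay between replicates 1 and 2. How many of the 30 named genes had either order was not counted. Of the 30 named genes, 7 lay on chromosome 17 (3 higher and 4 lower) and 5 on chromosome 8 (2 higher and 3 lower), chromosomes that hold 4.72% and 4.83% of the genes with a known chromosome. The lower genes of chromosome 17 include Clic5, Pla2g7 and Rcan2, which are neighbours at a single place. On chromosome 17 as a whole, groups did not overlap for 3.09% of genes that were higher and 1.81% that were lower, beside 1.94% and 1.23% of all genes, and on chromosome 8 for 1.04% and 2.81%. The strain and breeding of the animals were not given, so their part was not tested. In the promoter windows, GTGGGAA occurred in 5 of the 13 higher genes that had a window and in 0 of 10 lower genes. TGGGAA occurred in 6 of 13 and 3 of 10. By gene symbol, the shares over the table were 7.25% and 28.3%. The 5 were Dctd, Myo7a, Serpinb8, Sycp1 and Znrd1as. Of these, Dctd, Myo7a and Znrd1as also split the wild-type normal brain arrays, as given above. Whether RBPJ acts at these motifs was not tested.

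The largest positive difference of all genes was in H2-Ea, an MHC class II alpha chain that some laboratory mouse strains do not express, and it was chosen after its value was seen. It read 5.72, 4.90, 5.07 and 6.61 on the PDGF-p53 arrays and 9.75, 7.20, 6.19 and 9.10 on the PDGF-p53-RBPJ arrays. PDGF-p53-RBPJ replicate 3 lay below PDGF-p53 replicate 4, and the difference was 2.49 ± 0.80 (SE) with a limma adjusted p of 0.755. The other class II genes had the opposite sign in most cases: of 8 in the list, 6 had a negative difference. Groups did not overlap for 1 of the 8, H2-Ob, which was lower with a gap of 0.02, beside 1.23% of all genes. H2-Aa, the partner alpha chain, read 8.44, 6.35, 7.18 and 9.27 against 7.88, 5.66, 5.19 and 6.97, a difference of −1.38. Cd74, the invariant chain, read 7.01, 5.15, 5.91 and 9.60 against 7.06, 5.10, 4.80 and 6.01, a difference of −1.17. Without PDGF-p53 replicate 4, the highest, it was −0.28. Neither was called (adjusted p 0.946 and 0.961).

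No member of the other gene lists was called by limma, beside 0.0150% of all genes called higher and 0.00502% lower. Of their 425 genes, 12 had a positive and 8 a negative difference at an unadjusted limma p under 0.05. Over all genes these shares were 3.37% and 1.81%. Of the proliferation genes, 39 of 40 had a positive difference and the median was 0.20, beside 0.02 for all genes. With 1 array left out this median ran from 0.13 to 0.34. Groups overlapped for all 40. Kif11, the motor that separates spindle poles, read 8.91, 8.24, 8.20 and 9.16 against 9.92, 9.57, 9.14 and 9.17, a difference of 0.82 (adjusted p 0.550). Kif2c, a microtubule-depolymerising motor, differed by 0.44 and Rrm2, a subunit of ribonucleotide reductase, by 0.45. The mean of the list was 8.57, 8.13, 8.0 and 8.52 on the PDGF-p53 arrays and 8.67, 8.75, 8.42 and 8.32 on the PDGF-p53-RBPJ arrays, so the groups overlapped at the level of the list. The same arrays also had a positive median in 9 cell cycle inhibitors, 0.22, with 7 of 9 positive. Cdkn1b (p27) differed by 0.53 and Cdkn1c (p57) by 0.48. Cdkn2a, which encodes both Ink4a and Arf, differed by 0.14. The 21 measured p53 targets had a median of −0.00, and Polk, a DNA polymerase, was the 1 whose groups did not overlap, at 0.30, beside 1.94% of all genes for higher ones.

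Glial and neuronal marker lists had median differences between −0.18 and −0.00. Oligodendrocyte precursor markers had a median of −0.07 over 20 genes, and their mean was 8.89 to 9.11 in PDGF-p53 and 8.92 to 9.16 in PDGF-p53-RBPJ tumours, against 7.30 to 7.43 in normal brain. Neuron markers had a median of −0.18 and 5 of 27 positive. Their mean was 7.14, 7.35, 8.40 and 7.15 on the PDGF-p53 arrays, with replicate 3 apart, and 7.35, 6.89, 7.92 and 7.27 on the PDGF-p53-RBPJ arrays. Astrocyte markers had a median of −0.10 over 19 genes and a mean of 8.45 on PDGF-p53 replicate 3, while the other 7 PDGF arrays lay between 7.35 and 7.80. Oligodendrocyte markers had a mean of 8.56 on that array and 6.88 to 7.85 on the others. Neural stem and radial glia markers had a median of −0.18 with 6 of 18 positive, led by Prom1 (CD133) at −0.59; Hes1, Hes5, Fabp7 and Lfng belong to this list as well as to the Notch lists. Neuroblast markers had a median of −0.05 over 15 genes, and markers of choroid plexus and ependyma −0.10 over 16, with the defining choroid gene Ttr at −0.76. Without PDGF-p53 replicate 2 the difference of Ttr was 0.24.

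Of the cholesterol synthesis genes, 13 of 14 were negative, with a median of −0.18 that ran from −0.38 to 0.01 with 1 array left out. Insig1, the sterol-regulated brake on the pathway, read 9.07, 9.87, 9.19 and 9.08 against 9.04, 8.90, 8.87 and 8.38, a difference of −0.51 (adjusted p 0.891), and its groups were separated by 0.03. Dhcr7 and Cyp51, late enzymes of the pathway, differed by −0.43 and −0.39, and without PDGF-p53-RBPJ replicate 4 by −0.25 and −0.13. The mean of the list was lowest on PDGF-p53 replicate 1 (7.75) and PDGF-p53-RBPJ replicate 4 (7.55), 1 array of each group.

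Immune and interferon lists varied widely between arrays of one group. Interferon response genes had a median of −0.15 with 3 of 20 positive, and their mean was 7.20, 6.40, 6.78 and 8.06 on the PDGF-p53 arrays and 7.41, 6.90, 6.06 and 7.22 on the PDGF-p53-RBPJ arrays. PDGF-p53 replicate 4 was the highest of the 8. Lymphocyte markers had a median of −0.22 with 5 of 17 positive, led by the chemokine Ccl5 at −0.85 and the cytotoxic granule gene Nkg7 at −0.67, and their mean was also highest on PDGF-p53 replicate 4, at 5.65. Without that array Nkg7 differed by −0.31. Microglia markers had a median of −0.05 over 17 genes and infiltrating myeloid markers 0.00 over 27. Gpnmb, a glycoprotein of lipid-laden macrophages, was the largest of the latter at 0.95 (adjusted p 0.946).

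Mesenchymal and matrix genes had a median of 0.11 with 26 of 36 positive, and of −0.02 without PDGF-p53 replicate 3. Timp1, an inhibitor of matrix metalloproteinases, read 7.41, 7.01, 5.68 and 7.31 against 7.97, 7.66, 8.62 and 6.98, a difference of 0.95 (adjusted p 0.813). S100a4, a calcium-binding protein tied to cell motility, read 7.88, 8.21, 8.27 and 7.90 against 8.39, 8.43, 9.15 and 8.77, and the groups did not overlap (0.62, adjusted p 0.838). Mural cell markers had a median of 0.12, with the smooth muscle genes Acta2 at 0.63 and Tagln at 0.40, and endothelial markers 0.03. Hypoxia and glycolysis genes had a median of 0.02 over 20, immediate early genes 0.06 over 18 and ERK feedback genes 0.02 over 12. In the last list Etv5, a transcription factor induced by ERK signalling, had the largest difference, −0.48 (adjusted p 0.892). Of the erythrocyte list only 2 genes were measured, Alas2 (0.25) and Slc4a1 (0.01).

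**Figure D4:**
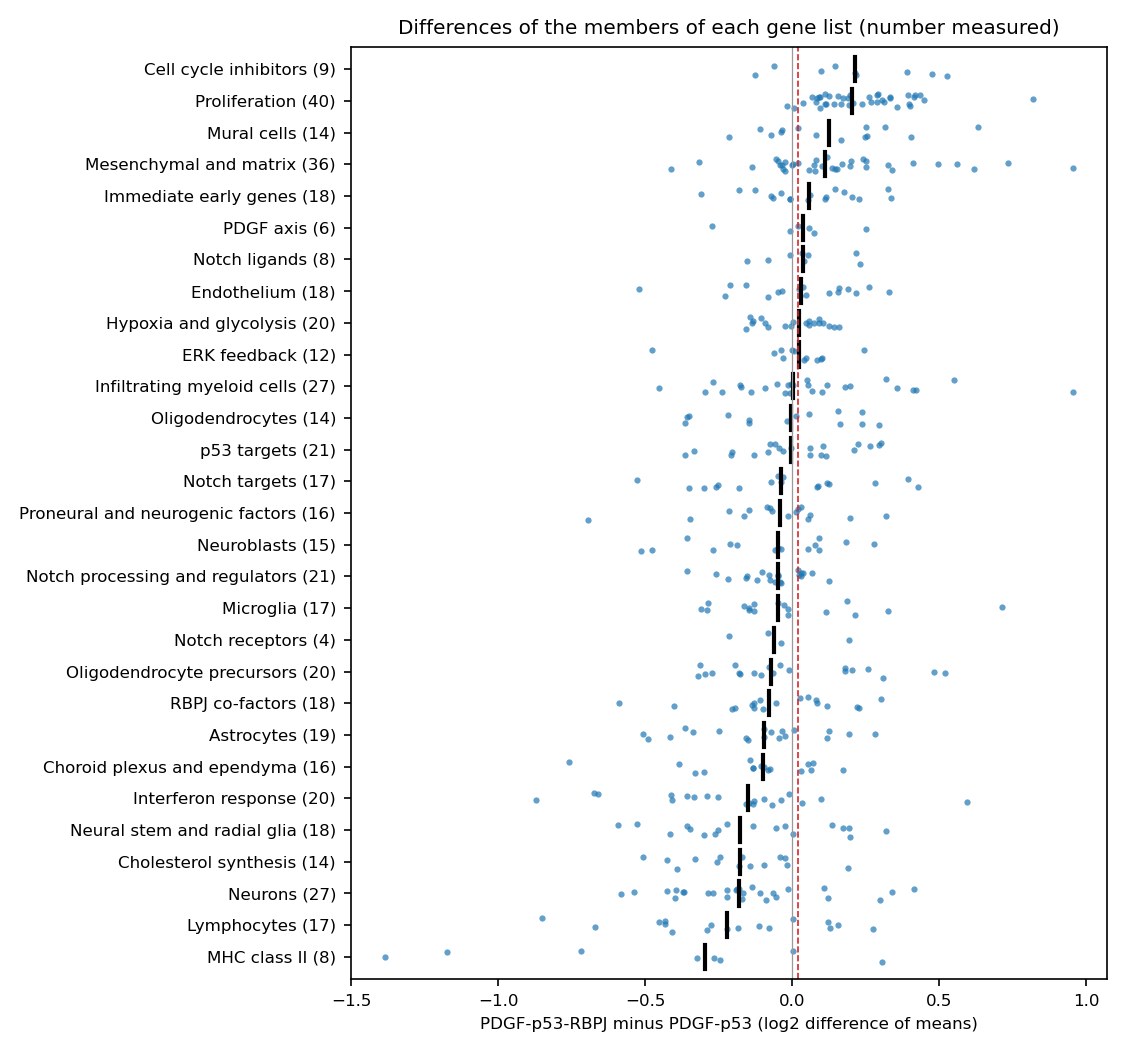
Difference between the tumour groups (x axis, log2) for each measured member of 29 gene lists (rows, number of genes in brackets). Blue points are genes, black bars list medians, the grey line is 0 and the dashed red line the median of all genes, 0.02; medians run from −0.29 for MHC class II to 0.22 for cell cycle inhibitors.

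For the 7136 genes with a mean level of at least 7, each gene's deviation from its median over the 8 arrays was taken, and the median deviation per chromosome was computed. On 16 of 20 chromosomes this median stayed between −0.11 and 0.09 on all 8 arrays. Chromosomes 5, 15, 18 and 19 went beyond 0.2 on either side of 0. Chromosome 19 read −0.36, −0.18, −0.13 and 0.14 on the PDGF-p53 arrays and 0.10, 0.13, 0.10 and −0.02 on the PDGF-p53-RBPJ arrays. PDGF-p53 replicates 1, 2 and 3 were thus below all others on it, and replicate 4 above. Chromosome 18 was at −0.35 on PDGF-p53 replicate 1 and −0.37 on PDGF-p53-RBPJ replicate 4. Chromosome 5 was at 0.25 on PDGF-p53 replicate 1, and chromosome 15 at 0.20 on PDGF-p53 replicate 2. DNA copy number was not measured. On chromosome 19, groups did not overlap for 47 of its 678 genes that were higher (6.93%) and 5 that were lower, beside 1.94% and 1.23% of all genes. Without the genes of chromosome 19 the counts were 340 higher and 241 lower, 1.77% and 1.25% of the remaining 19258 genes.

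**Figure D5:**
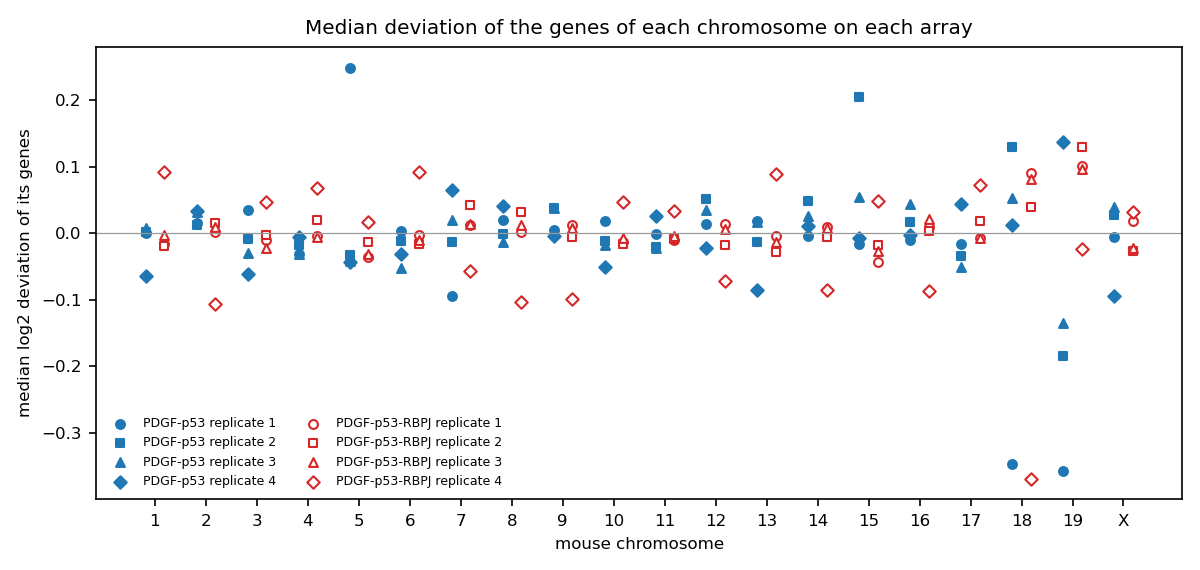
Median log2 deviation of the genes of each chromosome (x axis) on each of the 8 PDGF tumour arrays (y axis; filled blue, PDGF-p53; open red, PDGF-p53-RBPJ; shapes are replicates 1 to 4). On 16 chromosomes all points lie between −0.11 and 0.09; on chromosome 19 the PDGF-p53 arrays run from −0.36 to 0.14 and the PDGF-p53-RBPJ arrays from −0.02 to 0.13.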

How the data were processed

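Total RNA was hybridised to 16 Affymetrix arrays, 4 a group, assigned by title. The values deposited by the authors are log2 expression for 35556 probe sets; the submitters' processing notes name RMA and oligo, and versions were not given in the sources used here. RMA equalises the arrays, so a change of total RNA per cell cannot be seen. Precision is limited by the number of arrays. Symbols came from the platform annotation, updated through RefSeq. Of 21789 probe sets with 1 symbol, the one with the highest mean per gene was kept, which left 19936 genes.

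All 16 arrays entered 1 fit in limma 3.58.1 (R 4.3.3; lmFit, eBayes; 12 residual and 5.33 prior degrees of freedom), two-sided, with Benjamini-Hochberg adjustment over all genes. The median SE was 0.15. The fit was also run on simulated data with independent noise for each array, and the share of changed genes it recovered is not given here. Tables and figures used Python 3.11.15, pandas 2.3.3 and matplotlib 3.10.9. Named were the Notch, PDGF and proneural genes, the called genes, the 15 largest differences per direction among genes with no overlap and an unadjusted p under 0.05 (without small RNAs, sex genes and unnamed models), and up to 4 members of each other list. Members and the 32 lists were chosen with earlier results of these data known. Alternatives were the 8 arrays alone, trend and robust eBayes, probe set means, every probe set, no dim genes (mean under 5), housekeeping centring, a replicate block, array weights, a sex term (Xist against Kdm5d, Eif2s3y and Uty) and each array left out.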

Additional observations from a re-analysis of the deposited data

Results flagged for a closer look

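In groups of 4 arrays, the highest or lowest array was compared with the nearest of the other 3, and a group was noted where the share of the whole range taken by that gap passed Dixon's 95% critical value. Chance notes about 1 in 20 groups; here 13 of 306 (4.25%) were noted. Among named genes these were Apod at 11.7 on a PDGF-p53 array, Hspa1l at 5.13, Hey1 at 7.89 and Pdgfd at 5.0 in the same group, and Cir1 at 8.37, Ncstn at 7.70, Serpina1c at 4.91 and Serpinb8 at 5.51 on PDGF-p53-RBPJ arrays. The mean of the Notch ligands was low on 1 PDGF-p53 array (6.34), that of neuron markers high on another (8.40), and that of endothelial markers low on 1 PDGF-p53-RBPJ array (6.60). The chromosome 5 median of 0.25 on a PDGF-p53 array and the chromosome 18 median of −0.37 on a PDGF-p53-RBPJ array were noted too.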

How the results depend on the processing

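Clic5 and Snora73b were called in every fit. The count of genes called higher, 3, was 1 with every probe set tested, with housekeeping centring and with the replicate block, and 1 to 5 with 1 array left out. Same-numbered arrays deviated together with r of 0.05, 0.13, 0.18 and −0.12, so the numbers were not taken to pair the samples. The count called lower, 1, was 2 with array weights and 1 to 2 with 1 array left out. Genes with no overlap, 387 higher and 246 lower, numbered 736 and 470 with every probe set, and the lower ones 162 with housekeeping centring. With 1 array left out, a weaker demand by construction, they were 521 to 900 and 363 to 611. Rbpj was −0.43 as the mean of its probe sets and −0.64 to −0.53 with 1 array left out. List medians with 1 array left out ran from −0.11 to −0.021 for Notch processing and from −0.019 to 0.25 for mural cells. None of the 4 called genes turned its sign. The median of the interferon list ran from −0.34 to 0.13, of neurons from −0.32 to 0.03 and of astrocytes from −0.22 to 0.09. Leaving out 1 array turned the sign for 18 of 30 list medians, these included, and for 56 of 206 genes followed across settings. The sex term, the block and array weights were not run for counts of genes with no overlap, which use no fit. Leaving out the genes of chromosome 19 was chosen after seeing the data.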

Other observations

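Another 13767 probe sets had more than 1 symbol or no listed one. In the limma fit of every probe set, 0 of these passed an adjusted p of 0.05, while 565 were higher (4.10%) and 345 lower (2.51%) at an unadjusted p under 0.05, beside 3.37% and 1.81% of genes. Groups did not overlap for 307 that were higher (2.23%) and 196 that were lower (1.42%), beside 1.94% and 1.23% of genes.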
